A study of Mus musculus with 6 samples.

Results

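Expression of 33 genes of cholesterol and fatty acid synthesis was examined in RNA-Seq data from 22Rv1 cells, a human prostate cancer cell line. The genes were picked by name from a table of 58735 genes, with earlier results of these data known, so the choice was not independent of them. The enzymes from acetyl-CoA to squalene and on to cholesterol, the fatty acid synthesis genes and the SREBP regulators were the groups covered. Coverage was partial, since not every enzyme of these paths was among the 33 genes. All 33 had enough counts to be tested, with at least 137 counts in every library, among 17142 genes tested. Parental 22Rv1 cells given vehicle (3 libraries) were compared with a subline selected by gradually rising concentrations of BL-B01D1 (3 libraries), here called the resistant subline. BL-B01D1 is an antibody-drug conjugate that binds EGFR and HER3 and carries a topoisomerase I inhibitor. The labels give the treatment as BL-B01D1 for the resistant libraries and as vehicle for the parental ones. Whether drug was present at harvest is not stated beyond this, so drug exposure and selection cannot be told apart. The resistant libraries all came from 1 subline of 1 selection, and separate cultures are not stated, so p-values measured only the spread between these libraries. In such bulk samples, fewer cells of a type and less RNA per cell cannot be told apart.

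Cholesterol is built from acetyl-CoA through mevalonate and squalene, and fatty acids are built from the same cytosolic acetyl-CoA. Both pathways are driven by the SREBP transcription factors. SCAP escorts the SREBP precursors from the endoplasmic reticulum to the Golgi for cleavage, and INSIG proteins hold SCAP back when sterols are plentiful. SREBP-2, encoded by SREBF2, acts mainly on sterol genes, whereas SREBP-1c, a product of SREBF1, acts mainly on fatty acid genes. Prostate cancer cells are known for active lipid synthesis.

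Most of these genes were modestly lower in the resistant subline. Of the 33 genes, 26 fell and 4 rose at a false discovery rate (FDR) of less than 0.05, by the quasi-likelihood test of edgeR, with p-values adjusted by Benjamini-Hochberg over all genes tested. The 26 that fell were 78.8% of the members, whereas 18.4% of all genes tested fell. The 4 that rose, TM7SF2, FASN, ACSS2 and SCAP, were 12.1% of the members, against 17.1% of all genes tested. PMVK, NSDHL and INSIG2 did not pass the test. Among the genes with a mean abundance at or above that of the least abundant member, INSIG2, 22.6% fell and 21.0% rose.

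The changes were small. The median log2 fold change (resistant over parental) of the members was −0.32, a change of −19.96%, whereas that of all genes tested was 0.0038. Changes ranged from a log2 fold change of −0.77 for HMGCS1 to 0.32 for TM7SF2. None of the 33 members passed the study's fold threshold, an absolute log2 fold change greater than 1 at an FDR of less than 0.05, by edgeR, limma-voom or DESeq2, although 30 had an unadjusted edgeR p of less than 0.05. Among all genes tested, 2.53% were higher and 2.84% lower at that threshold. Members with a log2 fold change under −0.5 numbered 5, namely HMGCS1, SREBF2, ACAT2, SQLE and MSMO1.

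The members lay toward the low end of the whole distribution. In 9 members the log2 fold change was under the 10th percentile of all genes tested (−0.43), and in 23 it was under the 25th percentile (−0.16). It was above the 75th percentile (0.18) in 2 members, TM7SF2 and FASN. All resistant libraries lay under all parental libraries in 26 members, compared with 22.8% of all genes tested, and above them in 4 members, compared with 22.1%. The libraries overlapped in the same 3 members that did not pass the test.

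**Figure D1:**
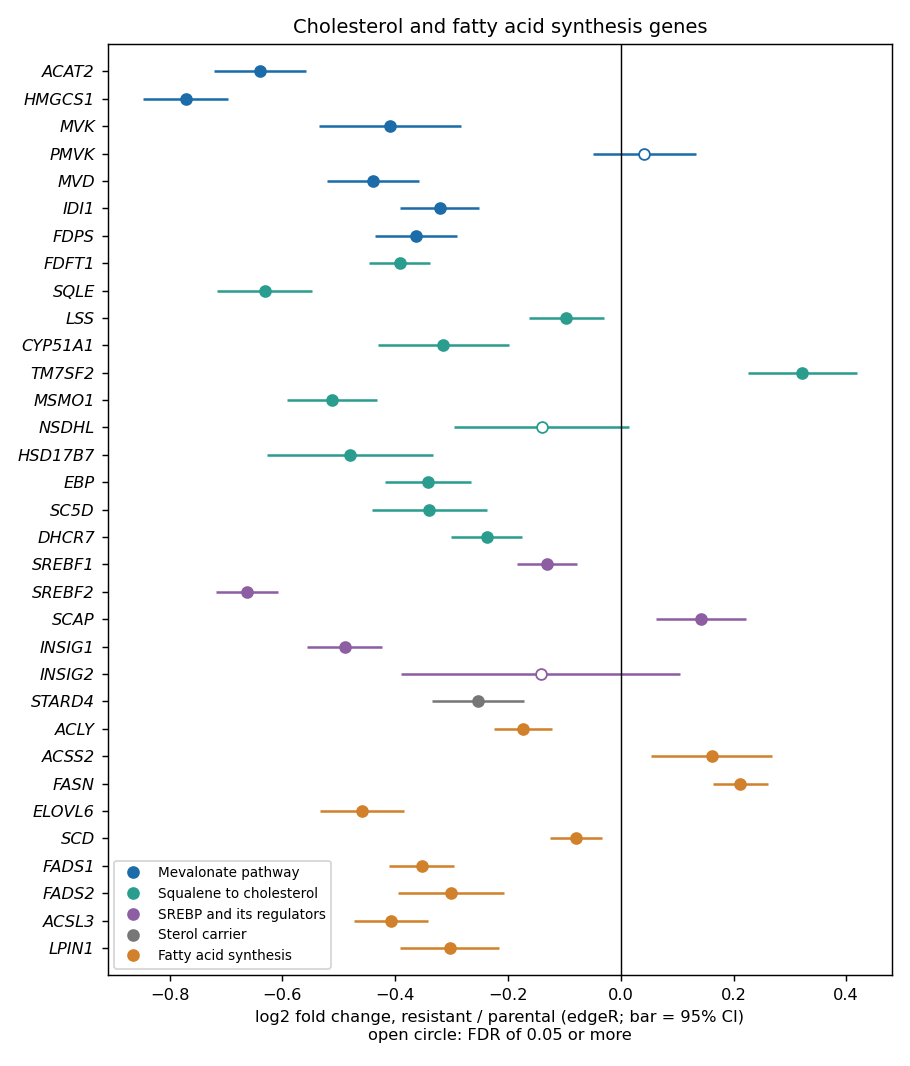
Log2 fold change (resistant over parental, x axis) of the 33 genes, with 95% confidence intervals as bars and colors for the role groups; open circles mark the 3 genes with an FDR of 0.05 or more. Most points lie left of 0, from −0.77 for HMGCS1, and the 4 genes that rose reach 0.32 for TM7SF2.

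The libraries within each group were close together for these genes. Abundance was expressed as CPM, counts scaled to a TMM-adjusted library of 1e6. Over the members, the coefficient of variation of CPM had a median of 3.60% among parental libraries and 2.96% among resistant libraries. It was highest for INSIG2, the least abundant member, at 8.90% and 13.3%. Summed over all 33 genes, abundance was 9146 ± 146 CPM in parental cells and 7848 ± 42.1 CPM in resistant cells (SD, n = 3 each), a ratio of 0.858. The sum weights abundant genes such as SCD and FASN most, and the median above does not.

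**Figure D2:**
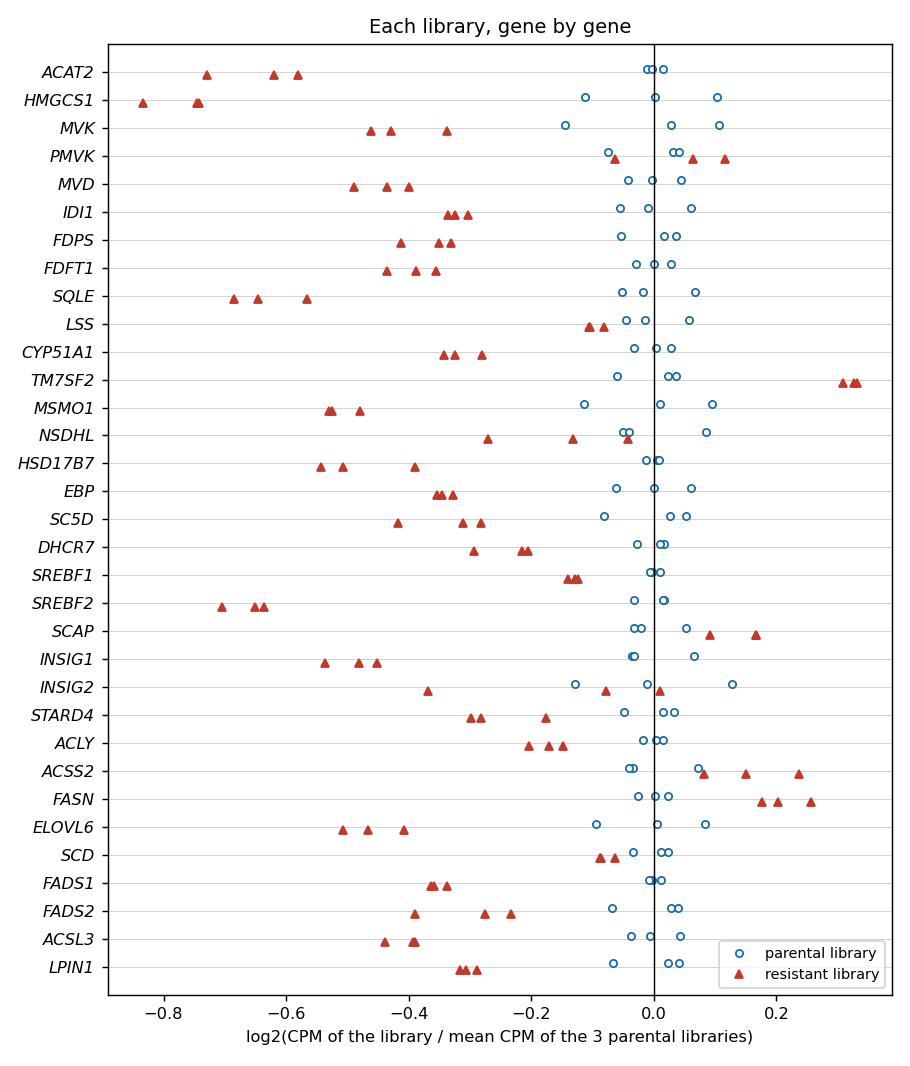
Each library's abundance for every gene, as log2 of its CPM over the mean CPM of the 3 parental libraries (x axis), with open circles for parental and triangles for resistant libraries. The triangles lie left of all circles in 26 genes, right of all circles in 4 and among them in PMVK, NSDHL and INSIG2.

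Genes of the mevalonate pathway, from acetyl-CoA to farnesyl diphosphate, were the role group with the lowest median. Of the 7 genes, 6 fell, the median log2 fold change was −0.41, and the remaining gene, PMVK, did not pass the test. HMGCS1 (ENSG00000112972, hg38 chromosome 5, 43289395 to 43313512, minus strand) encodes the cytosolic synthase that makes HMG-CoA. Its abundance was 336, 310.0 and 360.0 CPM in parental libraries 1, 2 and 3 and 200.1, 201 and 188 CPM in resistant libraries 1, 2 and 3. The lowest parental library was thus well above the highest resistant one. The log2 fold change of HMGCS1 was −0.77 (SE 0.037, FDR 1.00e-20). On a linear scale it fell by 41.4%.

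ACAT2, the cytosolic thiolase that joins acetyl-CoA units at the start of the pathway, had 145, 143 and 144 CPM in parental libraries and 93.7, 86.8 and 96.3 CPM in resistant libraries. MVD, which makes isopentenyl diphosphate from mevalonate diphosphate, had 125, 129 and 133 CPM in parental libraries and 95.3, 91.8 and 97.7 CPM in resistant libraries. Neither gene showed any overlap between the groups. The log2 fold changes were −0.64 (SE 0.040, FDR 7.11e-17) for ACAT2 and −0.44 (SE 0.040, FDR 5.63e-12) for MVD. MVK (mevalonate kinase), FDPS (farnesyl diphosphate synthase) and IDI1 (isopentenyl diphosphate isomerase) fell by less, with log2 fold changes from −0.41 to −0.32 in these 3 genes. PMVK, which adds the second phosphate to mevalonate, had 95.5, 103 and 104 CPM in parental libraries and 96.3, 105 and 109 CPM in resistant libraries. These groups overlapped, and the 95% confidence interval of the PMVK log2 fold change ran from −0.049 to 0.13.

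ACAT2 overlaps TCP1 and MVK overlaps MMAB, each on the opposite strand, and whether counting used strand is not stated. TCP1 held 294% as many counts as ACAT2 and had a log2 fold change of −0.018 (FDR 0.679). MMAB held 173% as many counts as MVK and fell by 0.29 on the log2 scale (FDR 7.37e-06). Whether reads were shared within these pairs was not tested.

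Among the 11 genes that turn farnesyl diphosphate into squalene and then cholesterol, 9 fell, 1 rose and 1 did not pass the test, with a median log2 fold change of −0.34. SQLE, the squalene epoxidase that is a rate-limiting step of the pathway, had 144, 136 and 133 CPM in parental libraries and 93.0, 85.6 and 87.9 CPM in resistant libraries. MSMO1, a C4-methylsterol oxidase, had 212, 183 and 199.6 CPM in parental libraries and 138, 137 and 142 CPM in resistant libraries. HSD17B7, a 3-ketosteroid reductase, had 33.4, 32.99 and 33.5 CPM in parental libraries and 22.9, 25.4 and 23.4 CPM in resistant libraries. In all 3 genes each resistant library was lower than each parental library. The log2 fold change was −0.63 for SQLE (SE 0.042, FDR 3.15e-16), −0.51 for MSMO1 (SE 0.040, FDR 3.84e-14) and −0.48 for HSD17B7 (SE 0.072, FDR 7.86e-07). The pseudogene HSD17B7P2 held 15.1% as many counts as HSD17B7 and had a log2 fold change of 0.025, and reads split between the pair would be uncertain.

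The other genes of this stretch that fell had smaller changes. FDFT1, which joins farnesyl units into squalene, had a log2 fold change of −0.39. EBP (sterol isomerase), SC5D (sterol desaturase), CYP51A1 (lanosterol demethylase) and DHCR7, which reduces 7-dehydrocholesterol to cholesterol, had log2 fold changes of −0.34, −0.34, −0.31 and −0.24. LSS, the cyclase that makes lanosterol, had the smallest decrease, with a log2 fold change of −0.10 (SE 0.033, FDR 0.0193). Leaving out parental library 3, resistant library 1 or resistant library 2 ended the call for LSS, with FDR values of 0.147, 0.0684 and 0.0728. NSDHL, which acts with MSMO1 and HSD17B7 in removing the C4 methyl groups, had a log2 fold change of −0.14 (FDR 0.160), with a 95% confidence interval from −0.29 to 0.015.

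TM7SF2 went against the group. TM7SF2 (ENSG00000149809, hg38 chromosome 11, 65111845 to 65116384, plus strand) encodes a sterol C14 reductase. Its abundance was 65.3, 61.0 and 64.7 CPM in parental libraries and 78.8, 80.1 and 79.8 CPM in resistant libraries. All resistant libraries were higher, and the log2 fold change of TM7SF2 was 0.32 (SE 0.048, FDR 5.31e-07). TM7SF2 overlaps VPS51 on the same strand, which rose by a log2 value of 0.23 (FDR 2.31e-05) and held 151% as many counts, and the part of shared reads was not tested. LBR, which encodes the other sterol C14 reductase and also anchors chromatin at the nuclear envelope, was not a member and fell by 0.28 on the log2 scale (SE 0.033, FDR 3.83e-09). Per length, in FPKM (the CPM value divided by gene length in kilobases), LBR was at 42.8 ± 0.81 in parental cells and 35.3 ± 0.93 in resistant cells, and TM7SF2 at 18.7 ± 0.67 and 23.4 ± 0.19 (SD, n = 3 each). LBR was thus the more abundant of the pair in both lines.

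Summed together, the 18 sterol synthesis enzymes had 3106 ± 56.5 CPM in parental cells and 2401 ± 12.8 CPM in resistant cells (SD, n = 3 each), a ratio of 0.773. The ratio was 0.725 for the 7 mevalonate pathway genes and 0.801 for the 11 genes after them. Of the 18 enzymes, 15 fell.

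Among the SREBP genes and their regulators, SREBF2 and INSIG1 fell most. Of these 5 genes, 3 fell, 1 rose and 1 did not pass the test, with a median log2 fold change of −0.14. SREBF2 (ENSG00000198911, hg38 chromosome 22, 41833079 to 41907308, plus strand) had 624, 603 and 623 CPM in parental libraries and 393, 378 and 397 CPM in resistant libraries. INSIG1, which retains SCAP in the endoplasmic reticulum and is itself an SREBP target, had 315, 294 and 295 CPM in parental libraries and 220.4, 216 and 208 CPM in resistant libraries. The groups were far apart for both genes. The log2 fold change of SREBF2 was −0.66 (SE 0.027, FDR 3.56e-23) and that of INSIG1 was −0.49 (SE 0.033, FDR 4.50e-16). On a linear scale SREBF2 fell by 36.8% and INSIG1 fell by 28.8%.

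SREBF1 and the partner genes moved less. SREBF1 had 509, 508 and 513 CPM in parental libraries and 468, 463 and 466 CPM in resistant libraries. The SREBF1 libraries did not overlap between groups, and the log2 fold change was −0.13 (SE 0.026, FDR 9.11e-05). SREBF1 overlaps RAI1 on the opposite strand, which held 17.4% as many counts and fell by 0.24 on the log2 scale, and shared reads were not tested. SCAP had 116, 110.5 and 109.6 CPM in parental libraries and 126, 119 and 126 CPM in resistant libraries. All resistant libraries were above the parental ones for SCAP, with a log2 fold change of 0.14 (SE 0.040, FDR 0.00401). INSIG2, which acts like INSIG1, had 11.7, 9.77 and 10.6 CPM in parental libraries and 8.26, 10.7 and 10.1 CPM in resistant libraries. The INSIG2 libraries overlapped, and the 95% confidence interval of its log2 fold change, from −0.39 to 0.11, was the widest of the members.

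Related genes were also compared with each other within each library, using FPKM so that gene length entered. The ratio of SREBF2 to SREBF1 was 1.30, 1.26 and 1.29 in parental libraries and 0.891, 0.868 and 0.905 in resistant libraries. SREBF2 was thus the more abundant of the pair in every parental library and the less abundant in every resistant library. The difference in mean log2 ratio was −0.53 (exact permutation test, two-sided, p = 0.1, adjusted p = 0.15 over 3 pairs), where 0.1 is the smallest p that 3 libraries against 3 allow. The ratio of INSIG1 to INSIG2 was 29.3, 32.6 and 30.1 in parental libraries and 28.9, 21.8 and 22.3 in resistant libraries. The highest resistant ratio was just under the lowest parental one, with a difference of −0.35 in mean log2 ratio (exact permutation test, two-sided, p = 0.1, adjusted p = 0.15). FADS1 and FADS2, fatty acid desaturases whose genes overlap on opposite strands of chromosome 11, gave ratios that overlapped between the groups, with a difference of −0.055 (exact permutation test, two-sided, p = 0.5, adjusted p = 0.5). Since strand use in counting is not stated, the counts of FADS1 and FADS2 may not be independent. These 3 pairs were chosen after the gene values were seen.

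STARD4, a soluble protein that carries cholesterol between membranes, had 133, 134 and 127 CPM in parental libraries and 108, 116 and 107 CPM in resistant libraries. The groups did not overlap, and the log2 fold change of STARD4 was −0.25 (SE 0.040, FDR 1.99e-06).

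Of the 9 fatty acid genes, 7 fell and 2 rose, with a median log2 fold change of −0.30. ELOVL6, which lengthens palmitate, had 250.4, 234 and 264 CPM in parental libraries and 176, 188 and 181 CPM in resistant libraries. ACSL3, which links long-chain fatty acids to coenzyme A, had 263, 249 and 254 CPM in parental libraries and 195, 194 and 188 CPM in resistant libraries. FADS1, the delta-5 desaturase of polyunsaturated fatty acids, had 369.6, 368 and 373 CPM in parental libraries and 289, 288 and 293 CPM in resistant libraries. The groups were apart in all 3 genes, most narrowly spread in FADS1. The log2 fold change was −0.46 for ELOVL6 (SE 0.037, FDR 1.01e-13), −0.41 for ACSL3 (SE 0.032, FDR 8.86e-14) and −0.35 for FADS1 (SE 0.028, FDR 1.34e-13).

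FASN and ACSS2 rose. FASN (ENSG00000169710, hg38 chromosome 17, 82078333 to 82098332, minus strand), the synthase that makes palmitate, had 1078, 1058 and 1095 CPM in parental libraries and 1218, 1239 and 1286 CPM in resistant libraries. Every resistant library was above every parental one, and the log2 fold change of FASN was 0.21 (SE 0.024, FDR 1.61e-09), an increase of 15.9%. ACSS2, which makes acetyl-CoA from acetate, had 57.8, 57.5 and 62.2 CPM in parental libraries and 69.7, 62.6 and 65.7 CPM in resistant libraries. The lowest resistant library barely exceeded the highest parental one, and the log2 fold change of ACSS2 was 0.16 (SE 0.053, FDR 0.0148). Leaving out parental library 2 or resistant library 1 ended the call for ACSS2, with FDR values of 0.0731 and 0.129. ACSS2 overlaps GGT7 on the opposite strand, which held 65.2% as many counts and had a log2 fold change of −0.0064, and shared reads were not tested.

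The other fatty acid genes fell by varying amounts. LPIN1, a phosphatidate phosphatase of triglyceride synthesis, and FADS2, the delta-6 desaturase, each had a log2 fold change of −0.30. FADS1 lies within FADS2 on the opposite strand, held 378% as many counts and had a log2 fold change of −0.35, close to that of FADS2. FADS2 also overlaps FEN1 on the same strand, which held 272% as many counts and had a log2 fold change of −0.11. Whether reads were shared among these genes was not tested. ACLY, which makes cytosolic acetyl-CoA from citrate, had a log2 fold change of −0.17 (SE 0.026, FDR 5.45e-07). SCD, the desaturase that makes oleate, had 1523, 1465 and 1512 CPM in parental libraries and 1435, 1412 and 1413 CPM in resistant libraries. The SCD groups did not overlap, yet its log2 fold change was only −0.079 (SE 0.023, FDR 0.00542), the smallest among the members that passed the test. Summed over the 9 genes, abundance was 4359 ± 72.9 CPM in parental cells and 4134 ± 31.7 CPM in resistant cells (SD, n = 3 each), a ratio of 0.948.

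Compared per length, the members spanned a wide range of abundance. In parental cells SCD was highest at 279.7 ± 5.79 FPKM, followed by FDFT1 at 135 ± 2.66, ACLY at 125 ± 1.38 and FASN at 115 ± 1.98, and INSIG2 was lowest at 2.70 ± 0.24 (SD, n = 3 each). In resistant cells SCD was again highest, at 265 ± 2.45 FPKM, and FASN was next at 133 ± 3.76, ahead of ACLY at 110.5 ± 2.18 and FDFT1 at 103 ± 2.89 (SD, n = 3 each). FASN thus moved from the fourth to the second place among the members. Across the 33 genes, the log2 fold change had a Spearman's rho of −0.11 with parental FPKM and 0.057 with gene length, given as a description of genes that share libraries.

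**Figure D3:**
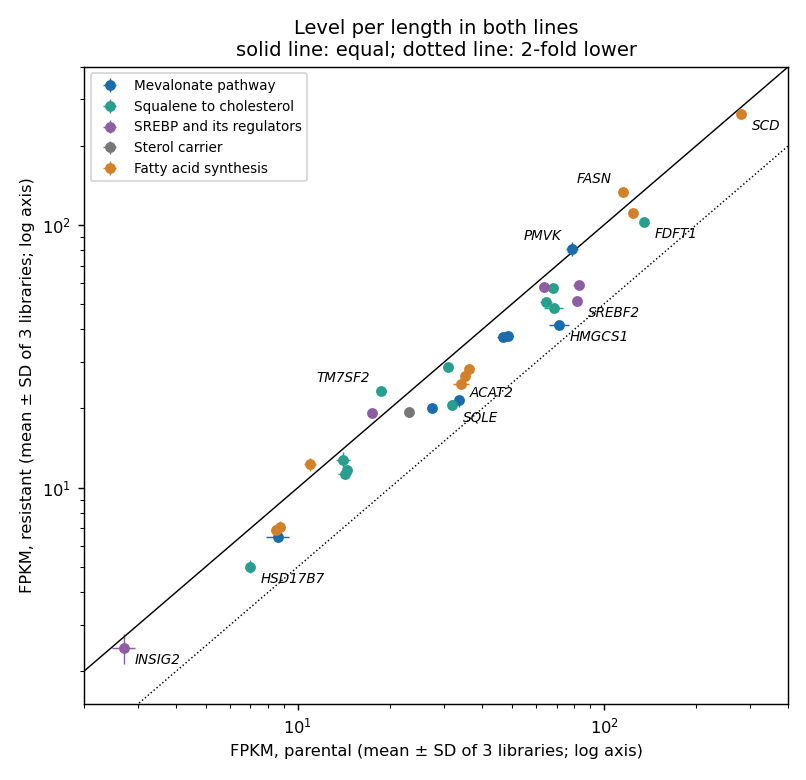
Mean FPKM of the 33 genes in parental (x axis) and resistant (y axis) cells, both on log axes, with SD of 3 libraries as bars; the solid line marks equal levels and the dotted line a 2-fold decrease. The points run from INSIG2 at 2.70 FPKM to SCD at 279.7 FPKM in parental cells, and none lies below the dotted line.

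Other genes of lipid metabolism were taken from lists of pathway genes. Of 24 other genes of sterol synthesis, uptake and its regulation, 10 fell and 3 rose, with a median log2 fold change of −0.012. The number that rose was 5 without parental library 1 and 1 without resistant library 3. NPC1, which exports cholesterol from lysosomes, fell by 0.31 on the log2 scale (SE 0.065, FDR 0.000156), and LBR is described above. NPC2, the partner of NPC1, was among those that rose, with a log2 fold change of 0.21 (SE 0.058, FDR 0.00320), and was named after its value was seen. The share of this list that fell was above the 18.4% of all genes tested, whereas its median was close to that of all genes.

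Of 29 other fatty acid genes tested, 8 fell and 6 rose, with a median log2 fold change of −0.024, and here some genes passed the 2-fold threshold. Among all genes tested 18.4% fell and 17.1% rose, and among those at or above the abundance of INSIG2 22.6% fell and 21.0% rose, so the counts of this list were near the background. DGAT2, which makes triglycerides, had 6.97 ± 0.93 CPM in parental cells and 18.04 ± 2.05 CPM in resistant cells (SD, n = 3 each), with a log2 fold change of 1.37 (SE 0.12, FDR 9.02e-13). ACSL1, a long-chain acyl-CoA synthetase like ACSL3, had 129.96 ± 5.28 CPM in parental cells and 55.001 ± 2.36 CPM in resistant cells (SD, n = 3 each), with a log2 fold change of −1.24 (SE 0.046, FDR 6.23e-25). SCD5, a desaturase related to SCD, fell by 1.59 on the log2 scale (SE 0.43, FDR 0.00290) at a low abundance of 1.22 ± 0.19 and 0.397 ± 0.13 CPM (SD, n = 3 each). MID1IP1, a regulator of lipid synthesis, also fell, by 0.72 on the log2 scale.

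Genes regulated by LXR, the nuclear receptor that senses sterols, and of sterol export showed a positive median log2 fold change of 0.29, with 6 of 9 tested genes higher and the other 3 not past the test. SMPDL3A, a phosphodiesterase and LXR target, had 54.2 ± 3.05 CPM in parental cells and 119 ± 3.38 CPM in resistant cells (SD, n = 3 each), a log2 fold change of 1.13 (SE 0.047, FDR 3.51e-23). NR1H3, which encodes LXR alpha, had a log2 fold change of 0.42 (SE 0.10, FDR 0.000726). The sterol exporter gene ABCG1 and MYLIP, which encodes a ubiquitin ligase, had log2 fold changes of 0.37 and 0.35. On the log2(FPKM + 1) scale, limma placed 3 of the 9 genes as higher. The number higher was 4 with DESeq2 and also 4 with edgeR without parental library 1. For all genes tested the share that rose was 17.1%.

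Of 23 fatty acid oxidation genes tested, 10 rose and 1, ETFA, fell, with a median log2 fold change of 0.11, whereas 17.1% of all genes tested rose and 18.4% fell. DECR1, which helps degrade polyunsaturated fatty acids in mitochondria, rose most in this list, with a log2 fold change of 0.64 (SE 0.053, FDR 2.10e-13). The acyl-CoA dehydrogenase genes ACADL and ACADSB and the carnitine carrier gene SLC25A20 had log2 fold changes of 0.41, 0.35 and 0.32. The decrease of ETFA, named after its value was seen, was 0.097 on the log2 scale (FDR 0.0240), and it was lost with DESeq2, with no filter on low counts, and without parental library 3 or resistant library 2.

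**Figure D4:**
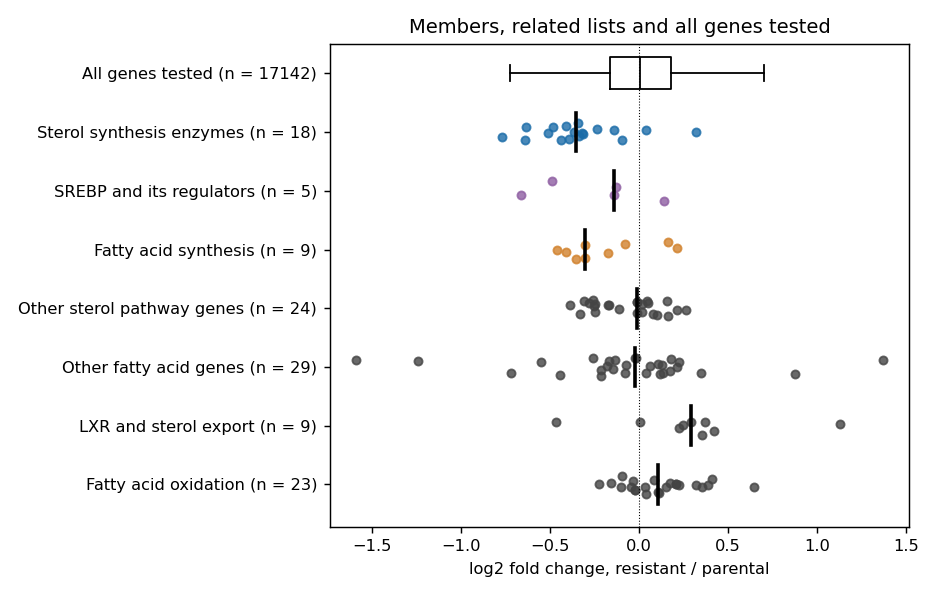
Log2 fold change (resistant over parental, x axis) of each gene in the member groups and the related lists, with a thick bar at each median; the box for all 17142 genes tested shows quartiles and median, with whiskers at the 5th and 95th percentiles. The medians are −0.35 for the 18 sterol synthesis enzymes, −0.30 for the 9 fatty acid genes, −0.012 and −0.024 for the other sterol and fatty acid genes, 0.29 for LXR and sterol export and 0.11 for fatty acid oxidation.

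Total counts per library ran from 13821639 to 17251491, and a count of 3 corresponded to 0.174 to 0.216 CPM, counting error only, far below the members' levels. The share of counts on mitochondrial genes was 4.19% to 4.21% in parental libraries and 5.11% to 5.35% in resistant libraries, and its part in the results was not tested. All 10 prostate luminal markers were expressed, with FOLH1 at 655 ± 25.6 CPM in parental cells and 737 ± 20.3 CPM in resistant cells (SD, n = 3 each), whereas KLK3 was low at 2.67 ± 0.58 and 4.96 ± 1.24 CPM. Of these 10, 6 rose and 3 fell, whereas 17.1% of all genes tested rose and 18.4% fell. Those that fell were HOXB13, KRT18 and EPCAM, with log2 fold changes of −0.48, −0.18 and −0.13. The 3 basal markers summed to at most 0.298 CPM and the 5 leukocyte and endothelial markers to at most 0.431 CPM in any library, with KRT5 and CD3E at 0 in all 6. The 4 fibroblast markers summed to 15.3 to 17.4 CPM in parental libraries and 13.1 to 13.4 CPM in resistant libraries. Most of this sum was COL1A1, with means of 14.2 CPM in parental and 11.7 CPM in resistant cells. In the same order, DCN had 1.79 and 1.30 CPM, PDGFRB 0.18 and 0.21 CPM, and COL1A2 0.024 and 0.041 CPM. Of the 4 neuroendocrine markers, CHGA fell from 39.4 ± 1.59 to 8.18 ± 0.49 CPM (SD, n = 3 each), SYP did not pass the test, and the other two were too low to test. The list summed to 135 to 149 CPM in parental libraries and 110 to 118 CPM in resistant libraries, and its part in the members' values was not tested.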

How the data were processed

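Messenger RNA of 3 vehicle-treated parental and 3 BL-B01D1-selected 22Rv1 libraries was purified with oligo-dT beads. Per the labels, the authors processed reads with fastp, HISAT2 (2.0.5) and featureCounts (1.5.0-p3) on hg38 and deposited raw counts per gene with position and gene length, the latter given by the authors in bases. The annotation release, and whether counting used strand, are not given in the sources used here. The labels name mouse as the organism, but the table was treated as human, like its gene identifiers and the cell line. Per-sample columns left unused numbered 0.

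From the deposited counts, low genes were removed with filterByExpr, TMM factors scaled the library sizes and the quasi-likelihood test of edgeR (4.0.16, R 4.3.3) compared the groups, without covariates and with Benjamini-Hochberg adjustment over 17142 genes. The study's methods name limma, used here as an alternative (limma 3.58.1), as was DESeq2 (1.42.0). The FPKM levels and ratios given were computed from TMM-scaled counts and gene length. The log2(FPKM + 1) setting instead used total counts per library without TMM, so it changed scale and scaling together. The standard error is the log2 fold change divided by the root of the F statistic, and changes used the package's default prior count. The biological coefficient of variation was 3.51%. Chi-square divided by its degrees of freedom was 1.79 to 2.48 between replicate libraries and 20.6 to 23.8 between groups, above sampling noise. These values cannot show whether the libraries of a group came from separate cultures. All 6 libraries were counted.

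The members and lists were chosen with earlier results of these data known. Values per library are given for the 3 members with the largest absolute log2 fold change in each role group and for members against their group's direction, and up to 4 genes with an FDR of less than 0.05 are named from each other list. Some genes that this rule selects are not reported here. Further alternatives were other scalings and filters, the log2(FPKM + 1) scale, a replicate block and leaving out each library.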

Additional observations from a re-analysis of the deposited data

How the results depend on the processing

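The counts of members that fell or rose, the absence of members past the 2-fold threshold and the members' median log2 fold change held, with counts within 1.5 times and the same sign, under limma-voom, DESeq2, library size alone, upper-quartile scaling, no filter, a minimum of 10 counts per library, limma on log2(FPKM + 1) and the omission of each library. The median ranged from −0.34 with library size alone to −0.32 with upper-quartile scaling, and from −0.33 to −0.30 with single libraries left out, where 25 to 26 members fell and 3 to 4 rose. No member changed direction. LSS lost its call without parental library 3 (log2 fold change −0.067), resistant library 1 (−0.091) or resistant library 2 (−0.091). ACSS2 lost its call on the log2(FPKM + 1) scale (0.13, FDR 0.0934) and without parental library 2 (0.14) or resistant library 1 (0.12). The cause was not tested. Other sterol genes that rose numbered 5 without parental library 1 and 1 without resistant library 3. Over all genes, 434 were higher and 487 lower past the 2-fold threshold, against 248 and 287 with at least 10 counts in every library, which tests fewer genes, and 114 and 67 on the log2(FPKM + 1) scale. Library size alone moved the median of all genes to −0.012.

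Both groups carry replicate numbers 1 to 3, but same-numbered libraries did not deviate together (Pearson's r across genes −0.0081, −0.020 and −0.016), so the numbers were not taken as pairs. With the replicate number as a block, 26 members fell, 4 rose and the median was −0.32, and 2814 genes rose and 3069 fell over all genes, against 2928 and 3153 without it.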
